A study of Mus musculus with 10 samples.

Results

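Chromatin remodellers and histone lysine enzymes were read out by RNA sequencing of 10 mouse hearts, 5 control and 5 iSOD2, taken when the mice were 6 weeks old. Members were chosen by symbol alone, as the rows whose name begins with Kmt, Kdm, Setd or Chd and a number, Setdb, Arid and a number, or Smarc. The Y-linked Kdm5d was left out. This rule took 71 of the 24537 rows of the count table. In both groups the dams received doxycycline chow in pregnancy and the pups carried a reverse tetracycline transactivator, expressed from the ubiquitous Rosa26 locus. The iSOD2 mice also carried 1 copy of an inducible hairpin RNA (TRE-SOD2-shRNA+/-) against Sod2, whose product removes superoxide from the mitochondrial matrix, and the controls did not. The knockdown was embryonic only, so every heart was sampled weeks after doxycycline had ended. There were 3 male and 2 female controls and 2 male and 3 female iSOD2 animals, and litter A gave 2 mice to each genotype and litter B gave 3. The comparison asked which of these genes still differed in the adult heart after that transient stress.

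These proteins set how tightly DNA is packed. KMT and SETD enzymes add methyl groups to lysines, most of them on histone tails, and KDM enzymes remove them with iron and 2-oxoglutarate (the JmjC class) or flavin (the LSD class), so that their substrates come from mitochondrial and redox metabolism. CHD proteins and the SMARC ATPases use ATP to slide, evict or exchange nucleosomes, and several ARID proteins are DNA-binding subunits of the BAF complex, the mammalian SWI/SNF remodeller. In the heart BAF and the COMPASS methyltransferases, which methylate histone H3 at promoters and enhancers, are known for their part in cardiomyocyte development.

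Libraries held 16448091 to 24263086 counts over genes. Sod2 itself, in normalized counts, stood at 10573 ± 588 for controls and 10781 ± 449 for iSOD2 (SD, 5 mice per genotype, DESeq2 adjusted p 0.806). The tissue label matched its markers, since 8 of 8 cardiomyocyte genes were abundant in every library, the mean log2 level of the list being 16.97 in controls and 16.95 in iSOD2 mice. Of 12 lists of cell type markers, 2 had an unadjusted exact permutation p under 0.05, the hepatocyte list (8 genes, two-sided p 0.0238, 0.286 after adjustment over the lists) and the erythroid list (4 genes, p 0.0476, 0.286 adjusted). The mean log2 level of the hepatocyte genes ran from 3.90 to 9.02 in controls and from 8.27 to 9.94 in iSOD2 mice, with 0 of the 8 absent, and the liver protein gene Alb spanned 47.9 to 14601 normalized counts over the 10 hearts. The atrial cardiomyocyte list (5 genes, exact permutation p 0.143, 0.299 adjusted) ran from 3.02 to 4.03 in controls and spread more widely in iSOD2 mice, from 3.64 to 7.16. Whether the share of atrial tissue differed between hearts was not tested. In whole tissue, fewer cells of a type and less RNA per cell cannot be told apart.

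Most members were expressed in the heart. Levels are compared as counts per kilobase of exon per 1000000 counts over genes, the scale on which genes of different length can be set side by side. By this measure 63 of 71 members had a mean level of at least 1 over the 10 mice and 29 of at least 10. The highest was Kmt5a, which places the single methyl group on a lysine of histone H4, at 45.0 ± 2.54 (SD, n = 10). Chd4, the ATPase of the NuRD repressor complex, followed at 40.4 ± 2.99, and its range of 35.1 to 46.3 overlapped that of Kmt5a, 42.1 to 50.02. Setd3, which methylates a histidine of actin, stood at 34.2 ± 0.694, and Smarcd3, the cardiac BAF subunit also called BAF60C, at 28.4 ± 1.58. Smarcd3 is uncertain, since 48.2% of its exon bases lie under exons of Chpf2 on the opposite strand and the counting stated no strand option. Among genes that encode BAF ATPases, Smarca4 (BRG1) and Smarca2 (BRM) had close levels of 20.8 ± 1.23 and 19.2 ± 0.970 with overlapping ranges. At the other end Chd5, Kdm4d and Arid3c, genes known mainly from brain, testis or lymphocytes, were at 0.0717, 0.0230 and 0.00139, and Arid3c gave 0.5 counts in all. Setd1b, at 1.39, ranked 62 of 71, Kdm6b, at 2.25, ranked 59, and Kmt2d, at 5.97, ranked 45.

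**Figure D1:**
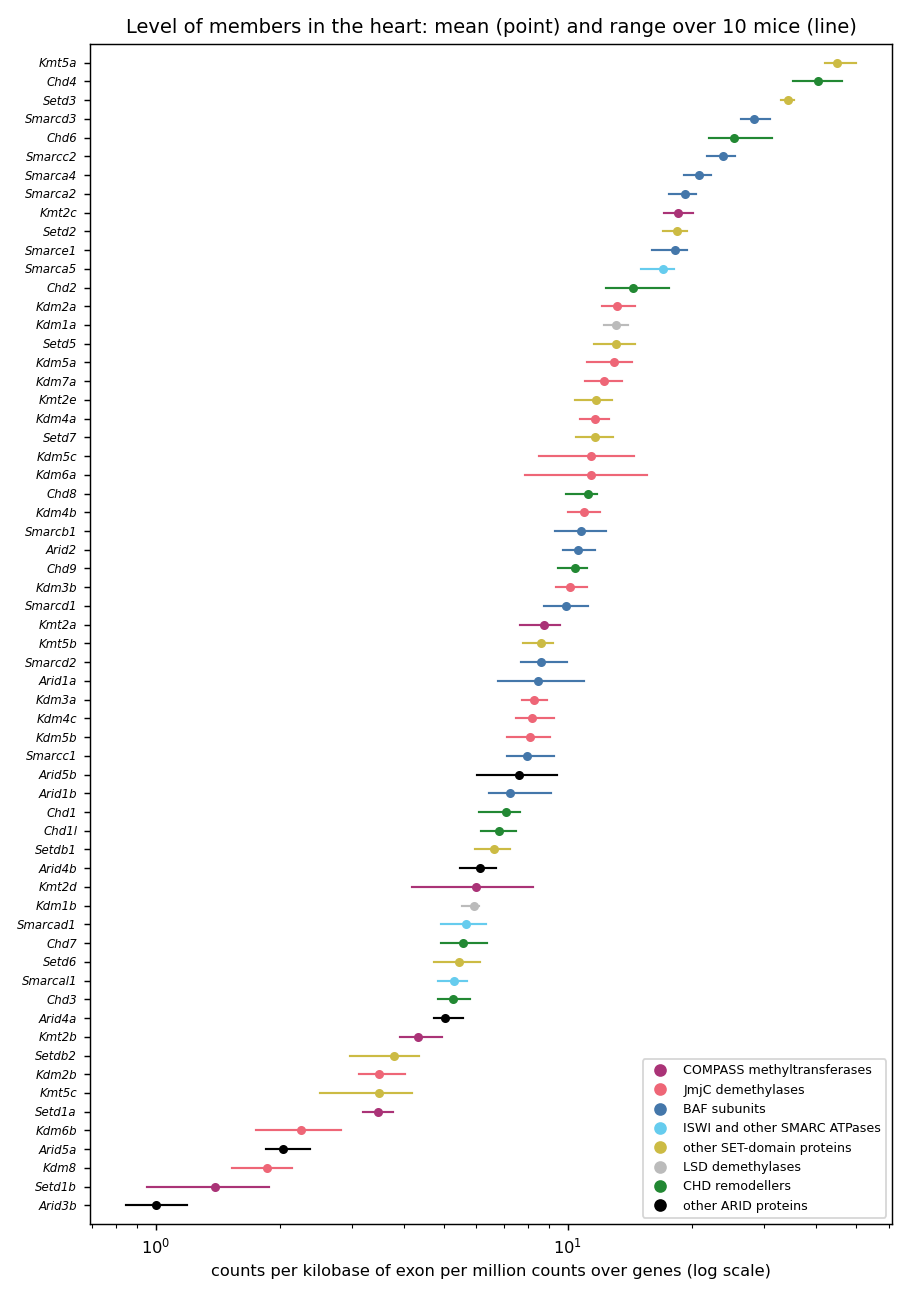
Mean level (points) and range over the 10 mice (lines) of the members with a mean of at least 1, in counts per kilobase of exon per 1000000 counts over genes on a log axis, coloured by role; the antisense, pseudogene and read-through rows are not drawn. Kmt5a at 45.0 and Chd4 at 40.4 lead, Setd1b and Kdm6b lie near the bottom at 1.39 and 2.25, and Kdm5c and Kdm6a, which differ by sex, have long lines.

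Between genotypes 4 members fell in iSOD2 hearts and 0 rose. They were the COMPASS methyltransferase genes Kmt2d and Setd1b, the JmjC demethylase gene Kdm6b and the BAF subunit gene Arid1a, with log2 fold changes (iSOD2 against control) of −0.52, −0.55, −0.42 and −0.39. A gene was called when the Wald test of DESeq2 gave an adjusted p of at most 0.05 and the absolute log2 fold change was above 0.25. Of 70 members fitted, 10 had counts too low for the independent filter of DESeq2 and received no adjusted p (Arid3a, Arid3b, Chd5, Kdm4d, Kdm8, Kmt5c, Setd4, Smarca1, the antisense RNA row Chd3os and the pseudogene row Smarca5-ps). The calls were 4 of the other 60, 6.67%, where 2.96% of all 9479 such genes were called, 1.70% of them lower and 1.27% higher. Without the fold threshold 9 members passed, all lower, where 6.09% of all genes passed, 3.05% lower. The 5 added were Kmt2b, Setd7, Smarcc1, Chd7 and Smarca4, with log2 fold changes from −0.23 to −0.17.

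The calls rested on the test used. In edgeR's quasi-likelihood test 0 members passed an adjusted p of 0.05, the lowest being 0.0664 for Setd1b, and 0 of all 17728 genes did. In that test 13 of 70 members (18.6%) had an unadjusted p under 0.05, 12 of them lower, against 15.3% of all genes, 6.77% lower, and in DESeq2 13 of 60 had, 21.7% against 20.0%. The genotypes did not overlap for 8 members, 7 lower and 1 higher in iSOD2 mice, which is 13.3% of the 60. Over all genes 5.73% did the same, 2.56% lower and 3.16% higher. Of the 70 members fitted, 52 had a negative log2 fold change and 18 a positive one, and the median was −0.07, where the median over all genes with an adjusted p was −0.01. Among members with an adjusted p 75.0% were lower, against 52.7% of all such genes.

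The COMPASS methyltransferase genes, Kmt2a, Kmt2b, Kmt2c, Kmt2d, Setd1a and Setd1b, had a negative log2 fold change in 6 of 6 cases, with a median of −0.17, and 2 of them were called. Their median exon length was 12620.5 bp, and of all genes of 4936 bp and above 79.4% were lower. With each library's trend on exon length removed, as described further on, 4 of the 6 were lower. The median was then −0.09, and 2 were called. Summed over the 6 genes the level per kilobase of exon averaged 44.8 ± 1.07 for controls and 39.98 ± 1.79 for iSOD2 hearts (SD, 5 mice per genotype). That trend was not removed from these sums.

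Kmt2d (NM_001033276, mm10 chromosome 15, 98831669 to 98871205, minus strand) encodes MLL4, which places single methyl groups on histone H3 at enhancers. It had 2958, 3020, 3362, 2709 and 2452 normalized counts in controls 1, 2, 3, 4 and 6, and 2455, 2255, 1974, 1721 and 1671 in iSOD2 mice 5, 7, 8, 9 and 10. The lowest control and the highest iSOD2 mouse met at 2452 and 2455, and every other iSOD2 heart lay below every control. The means were 2900 ± 342 and 2015 ± 338 (SD, 5 mice per genotype), and the log2 fold change was −0.52 ± 0.11 (SE), with an adjusted p of 0.000584 in DESeq2 and 0.0683 in edgeR. Within males it was −0.65, within females −0.35, within litter A −0.50 and within litter B −0.54.

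Setd1b (NM_001040398, chromosome 5, 123142193 to 123168630, plus strand), the catalytic subunit of a complex that trimethylates histone H3 at promoters, was the member with the most negative log2 fold change among those averaging 50 counts or more. Its normalized counts were 323, 305, 342, 251.9 and 293 in controls 1, 2, 3, 4 and 6 and 224, 251.8, 197, 175 and 191 in iSOD2 mice 5, 7, 8, 9 and 10. Control 4, at 251.9, and iSOD2 7, at 251.8, could hardly be told apart, and the other 4 iSOD2 hearts lay below every control, so its count among the genes without overlap rests on that pair. The log2 fold change was −0.55 ± 0.12 (SE), with an adjusted p of 0.000663 in DESeq2 and 0.0664 in edgeR. It was −0.61 in males, −0.42 in females, −0.49 in litter A and −0.59 in litter B.

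Kmt2b, the paralogue of Kmt2a that acts mainly at promoters, had 864, 816, 838, 727 and 849 normalized counts in the controls and 694, 743, 705, 687 and 663 in the iSOD2 mice, in the same order. Control 4, at 727, lay below iSOD2 7, at 743, and the other 4 controls lay above all 5 iSOD2 hearts. The log2 fold change of −0.23 ± 0.06 (SE, adjusted p 0.0132 in DESeq2) was under the fold threshold. Without control 4 it was −0.27 and without iSOD2 7 −0.25, and it was then called. For Kmt2a, Kmt2c and Setd1a the log2 fold changes were −0.11, −0.09 and −0.11, with adjusted p of 0.401, 0.412 and 0.404. Setd1a shares 51.9% of its exon bases with a same-strand transcript, Gm49388, so its counts may include reads of that transcript.

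The sequence upstream of the start site is shown as an example for Kmt2d, called lower, and for Smarca4, lower without overlap. It is also shown for Arid4b, the only member higher without overlap, which was not called. Each is the 250 bases before the start (RefSeq, GRCm38.p6, 5′ to 3′ on the strand of the gene), with CpG dinucleotides in capitals. Each start is that of the transcript counted. The bases after it were found in a GENCODE M21 transcript of the gene for Smarca4 and Arid4b but not for Kmt2d. They lie at chr15:98871206-98871455 (minus strand), chr9:21615919-21616168 (plus strand) and chr13:14063534-14063783 (plus strand).
Kmt2d: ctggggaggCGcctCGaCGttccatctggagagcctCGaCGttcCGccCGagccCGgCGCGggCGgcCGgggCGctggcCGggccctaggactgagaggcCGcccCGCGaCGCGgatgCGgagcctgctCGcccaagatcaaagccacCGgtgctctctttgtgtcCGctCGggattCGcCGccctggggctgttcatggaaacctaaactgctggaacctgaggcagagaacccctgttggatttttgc
Smarca4: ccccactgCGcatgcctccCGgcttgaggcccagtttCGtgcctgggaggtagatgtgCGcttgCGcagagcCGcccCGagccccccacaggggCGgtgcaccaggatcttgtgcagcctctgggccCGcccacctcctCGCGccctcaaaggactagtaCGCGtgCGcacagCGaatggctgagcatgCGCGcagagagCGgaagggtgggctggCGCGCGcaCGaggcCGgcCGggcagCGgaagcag
Arid4b: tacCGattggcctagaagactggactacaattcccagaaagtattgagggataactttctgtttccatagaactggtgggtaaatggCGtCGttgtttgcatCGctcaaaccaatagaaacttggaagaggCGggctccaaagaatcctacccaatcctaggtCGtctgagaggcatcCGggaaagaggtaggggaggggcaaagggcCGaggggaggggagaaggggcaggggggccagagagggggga
The Kmt2d stretch held 26 CpG dinucleotides at 67.6% GC, that of Smarca4 25 at 70.8% and that of Arid4b 8 at 54.0%. Setd7 and Smarcc1, also lower without overlap and with a start at the transcript counted, were not printed. Their stretches held 17 CpG dinucleotides at 60.4% GC and 21 at 63.6%. Whether base composition goes with direction was not tested. Over 32851 promoters the median GC was 52.4%, and over the 68 promoters found for 52 member genes it was 63.6%. Motif letters of 3 redox or mitochondrial regulators were searched on both strands of the same 250 bases. The antioxidant response element TGACNNNGC was found in 4 of the 68 member promoters (5.88%) and in 10.2% of all, the FOXO letters GTAAACA in 1 (1.47%) and in 3.17%, and the NRF1 motif, a palindrome given here by name alone, in 0 and in 0.782%. Promoters of the same gene were counted separately. The element lay in promoters of Kdm2b, Kdm4c and Smarcad1, and those of Kdm2b that held it overlap, so they may share a site. The FOXO letters lay in a promoter of Kdm2b. None of the 3 motifs was in the stretches printed, which says only that these letters are not in these windows. Setd1b and Kdm6b are named only.

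JmjC demethylases numbered 15, of which 13 had a negative log2 fold change and 1, Kdm6b, was called, with a median of −0.09. With the exon length trend removed 10 of the 15 were lower, with a median of −0.02. Kdm6b (NM_001017426, chromosome 11, 69398518 to 69413675, minus strand) encodes JMJD3, an inducible demethylase that removes the Polycomb mark from histone H3. Its normalized counts were 387, 398, 384, 288 and 319 in controls 1, 2, 3, 4 and 6 and 260, 340, 237, 257 and 235 in iSOD2 mice 5, 7, 8, 9 and 10. The 3 male controls stood at 384 to 398 and the 2 female controls at 288 and 319, and iSOD2 7, a male of litter A at 340, lay above both of these and apart from the other 4 iSOD2 hearts. Its log2 fold change was −0.42 ± 0.12 (SE), with an adjusted p of 0.0208 in DESeq2 and 0.122 in edgeR. It was −0.39 in males, −0.32 in females, −0.45 in litter A and −0.40 in litter B. It was the least firm of the 4 calls, being lost when any 1 of control 2, control 3, iSOD2 5, iSOD2 8, iSOD2 9 or iSOD2 10 was left out (log2 fold changes −0.38 to −0.41, adjusted p 0.0514 to 0.117). Kdm3b had non-overlapping groups, 1511 to 1671 normalized counts in controls and 1336 to 1494 in iSOD2 mice, but an adjusted p of 0.0625, and 24.6% of its exon bases lie under an opposite-strand transcript. The Kdm2, Kdm4, Kdm5 and Kdm7 genes lay between −0.15 and 0.01 apart from Kdm4d, which had a mean of 1.26 normalized counts. The 2 LSD-type demethylase genes, Kdm1a and Kdm1b, had log2 fold changes of −0.07 and 0.00 (adjusted p 0.546 and 0.984).

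BAF subunits numbered 12, of which 10 had a negative log2 fold change and 1, Arid1a, was called, with a median of −0.08. With the exon length trend removed 8 of the 12 were lower, with a median of −0.07. Arid1a (NM_001080819, chromosome 4, 133679008 to 133753611, minus strand), the ARID subunit of canonical BAF, had 1636, 1799, 1844, 1443 and 1440 normalized counts in controls 1, 2, 3, 4 and 6 and 1307, 1421, 1193, 1211 and 1098 in iSOD2 mice 5, 7, 8, 9 and 10. The lowest control stood at 1440 and the highest iSOD2 heart at 1421, so the groups did not overlap, and the male controls were the highest of all. The means were 1633 ± 191 and 1246 ± 123 (SD, 5 mice per genotype), and the log2 fold change was −0.39 ± 0.09 (SE), with an adjusted p of 0.00188 in DESeq2 and 0.0745 in edgeR. It was −0.42 in males, −0.27 in females, −0.39 in litter A and −0.39 in litter B.

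Smarca4, the BAF ATPase gene, had a narrow spread within each genotype for its level, 2892 ± 74.3 and 2579 ± 55.2 (SD, 5 mice per genotype). Its normalized counts were 2981, 2940, 2881, 2785 and 2874 in the controls and 2646, 2604, 2530, 2514 and 2599 in the iSOD2 mice, again in the order of their numbers. All 5 iSOD2 hearts lay below all 5 controls with a gap from 2646 to 2785, although the log2 fold change was only −0.17 ± 0.04 (SE, adjusted p 0.00163 in DESeq2). Smarcc1 (BAF155), a scaffold subunit, had 915 to 1084 normalized counts in controls and 832 to 915 in iSOD2 mice and a log2 fold change of −0.21 with an adjusted p of 0.0267. Its groups all but met, at 915.2 and 914.9. Its partner Smarcc2 stood at −0.07 (adjusted p 0.543). Of the remaining subunit genes Arid1b was at −0.20 (adjusted p 0.0884), Smarcb1 at −0.14 (adjusted p 0.336), and Arid2, Smarca2, Smarcd1, Smarcd2, Smarcd3 and Smarce1 lay between −0.09 and 0.08 with adjusted p of at least 0.449. Smarce1, which encodes BAF57, was among the 5 most positive members, with 1159, 1027, 1016, 1093 and 1046 normalized counts in the controls and 1161, 1122, 1160, 1119 and 1081 in the iSOD2 mice. The log2 fold change was 0.08 (adjusted p 0.449), and control 1 lay as high as the iSOD2 hearts.

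**Figure D2:**
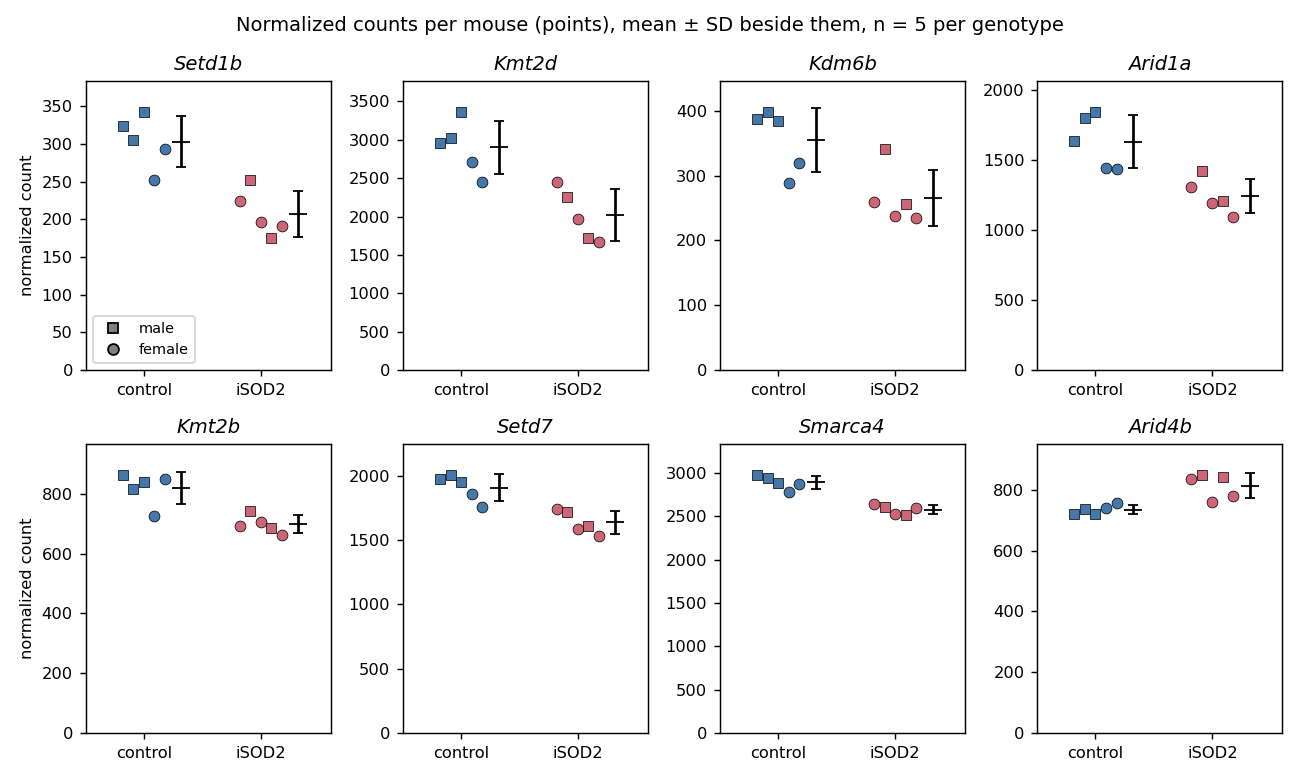
Normalized counts of 8 members in each mouse (squares, males; circles, females; blue, control; red, iSOD2), with mean ± SD, n = 5 per genotype, on axes that start at 0. Smarca4, Setd7 and Arid1a separate the genotypes downwards and Arid4b upwards, while Setd1b, Kmt2d, Kdm6b and Kmt2b each have mice of both groups at the same height.

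Other SET-domain genes numbered 12, with 9 negative log2 fold changes, 0 calls and a median of −0.02. With the exon length trend removed 6 of the 12 were lower. Setd7, which places a single methyl group on histone H3 and on several transcription factors, had 1975, 2009, 1950, 1856 and 1757 normalized counts in the controls and 1743, 1717, 1588, 1612 and 1535 in the iSOD2 mice. The groups did not overlap, control 6 at 1757 lying just above iSOD2 5 at 1743, and the log2 fold change was −0.22 ± 0.06 (SE, adjusted p 0.00625 in DESeq2). Setd2, the trimethylase that travels with RNA polymerase II, was at −0.01 (adjusted p 0.943) and Kmt5a at −0.03 (adjusted p 0.874). Setd6, a methylase of the NF-kB subunit RelA, had 186, 173, 181, 188 and 185 normalized counts in the controls and 197, 198, 208, 184 and 176 in the iSOD2 mice. Its groups overlapped and the log2 fold change was 0.08 (adjusted p 0.703). Kmt2e, Kmt5b, Setd3, Setd5, Setdb1 and Setdb2 lay between −0.11 and 0.05 with adjusted p of at least 0.286. The read-through row Setdb2-phf11c had 207.7 to 274 normalized counts over the mice, close to the 194.6 to 265 of Setdb2. It stood at 0.01, beside 0.00 for Setdb2. Reads shared between these rows were not measured, and both rows are among the 60 members with an adjusted p.

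CHD remodellers, 10 in number, were evenly split, 5 lower and 5 higher, with 0 called and a median of −0.01. Removal of the exon length trend left 3 of the 10 lower, with a median of 0.06. Chd7, which opens enhancers in heart and neural crest development, had 1325 to 1464 normalized counts in controls and 1133 to 1247 in iSOD2 mice, without overlap, and differed by −0.19 ± 0.05 on the log2 scale (SE, adjusted p 0.00714 in DESeq2). Chd2 had 2747, 2706, 2442, 2497 and 2781 normalized counts in the controls and 2772, 3030, 3254, 2572 and 2223 in the iSOD2 mice, in which both the highest and the lowest heart of all lay. Its log2 fold change was 0.07 (adjusted p 0.713), and 18.4% of its exon bases are shared with a same-strand transcript. The log2 fold changes of Chd1, Chd1l, Chd3, Chd4, Chd6, Chd8 and Chd9 ran from −0.12 to 0.01 with adjusted p of at least 0.275. The 4 other SMARC ATPase genes, Smarca1 and Smarca5 of the ISWI family with Smarcad1 and Smarcal1, had log2 fold changes of −0.12 to −0.00 and 0 calls. In the fit without the exon length trend 2 of these 4 were lower.

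Outside BAF, the ARID genes gave the only member whose iSOD2 hearts were all higher. Arid4b, a subunit of the Sin3 deacetylase complex, had 722, 737, 720, 741 and 757 normalized counts in the controls and 835, 851, 761, 844 and 781 in the iSOD2 mice. Every iSOD2 heart lay above every control, iSOD2 8 at 761 by the least. On the log2 scale the difference was 0.15 ± 0.06 (SE), with an adjusted p of 0.102 in DESeq2 and 0.166 in edgeR, so that it did not pass. Its paralogue Arid4a stood at 0.00 (adjusted p 0.989), and Arid5a and Arid5b at −0.09 and −0.10 (adjusted p 0.614 and 0.698). Of the 7 ARID genes outside BAF, 6 were fitted, 3 of them lower and 3 higher. After removal of the exon length trend 2 of the 6 were lower.

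**Figure D3:**
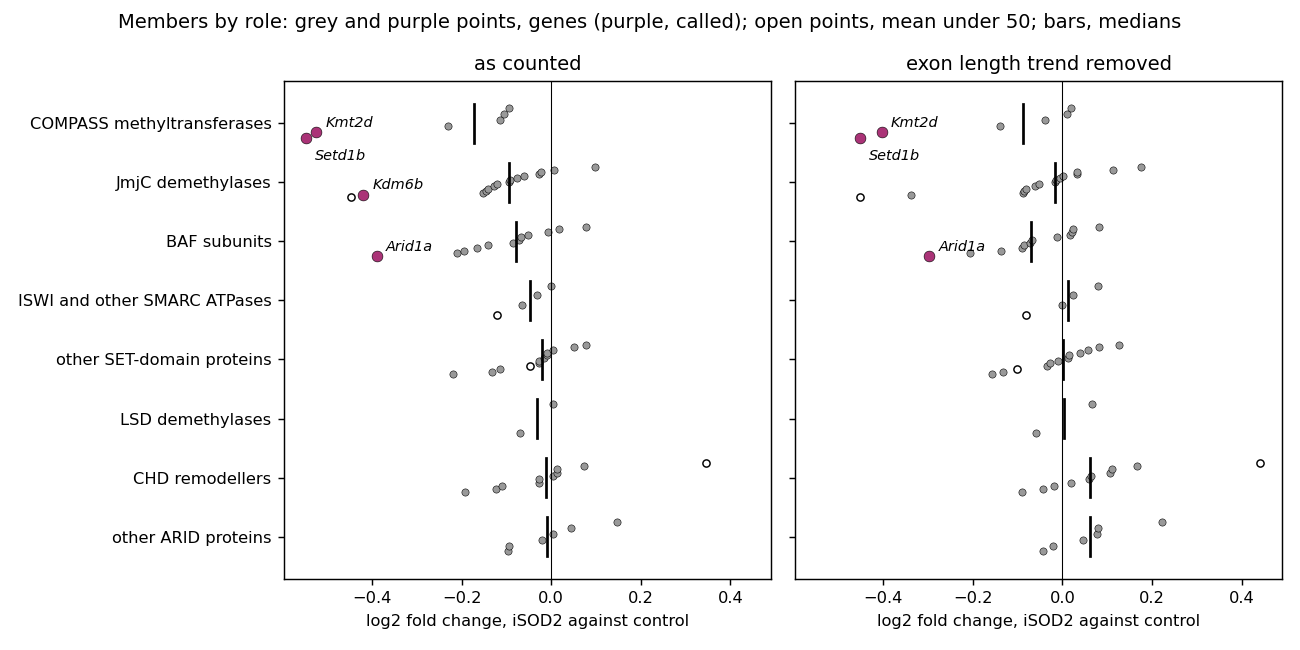
Log2 fold changes (iSOD2 against control) of the fitted members by role, as counted (left) and with each library's trend on exon length removed (right), with bars at the medians and open points for genes with a mean under 50 normalized counts. The COMPASS median moves from −0.17 to −0.09 and the JmjC median from −0.09 to −0.02, and Kdm6b is no longer called on the right.

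Members were long genes, and fold changes in these libraries went with length. The median exon length was 5907 bp over the 64 members averaging 50 or more normalized counts and 2997 bp over all 12149 such genes, and the 4 called members had a median of 8497 bp and of 58.7% GC, against 50.4% GC over all genes. The slope of a library's log2 deviation on log2 exon length was positive in 5 of 5 controls (0.0062 to 0.0527) and negative in 5 of 5 iSOD2 mice (−0.0509 to −0.0180). When genes were cut into 5 classes of exon length, the longest class, 4936 bp and above, held 41 members. Of these 32 were lower (78.0%), beside 79.4% of all 2430 genes there. Their median log2 fold change was −0.09, and that of all genes of the class −0.08. The 4 calls all came from this class, where 3.91% of all genes were called lower.

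With a smooth trend on exon length removed from each library, the direction of the set was no longer one-sided, while 3 of the 4 calls remained. Of 64 members 33 were lower, and the median was −0.00. Kmt2d (−0.40, DESeq2 adjusted p 0.0423), Setd1b (−0.45, adjusted p 0.0129) and Arid1a (−0.30, adjusted p 0.0267) were called, 3 of 61 members where 1.30% of all genes were, 0.846% lower. Kdm6b was at −0.34 with an adjusted p of 0.122. Smarca4 was at −0.09 (adjusted p 0.354), Smarcc1 at −0.14 (adjusted p 0.292) and Kmt2b at −0.14 (adjusted p 0.320), none of which passed. Arid4b was at 0.22 with an adjusted p of 0.00610, still under the fold threshold. The part of length or RNA quality in these differences was not tested further.

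**Figure D4:**
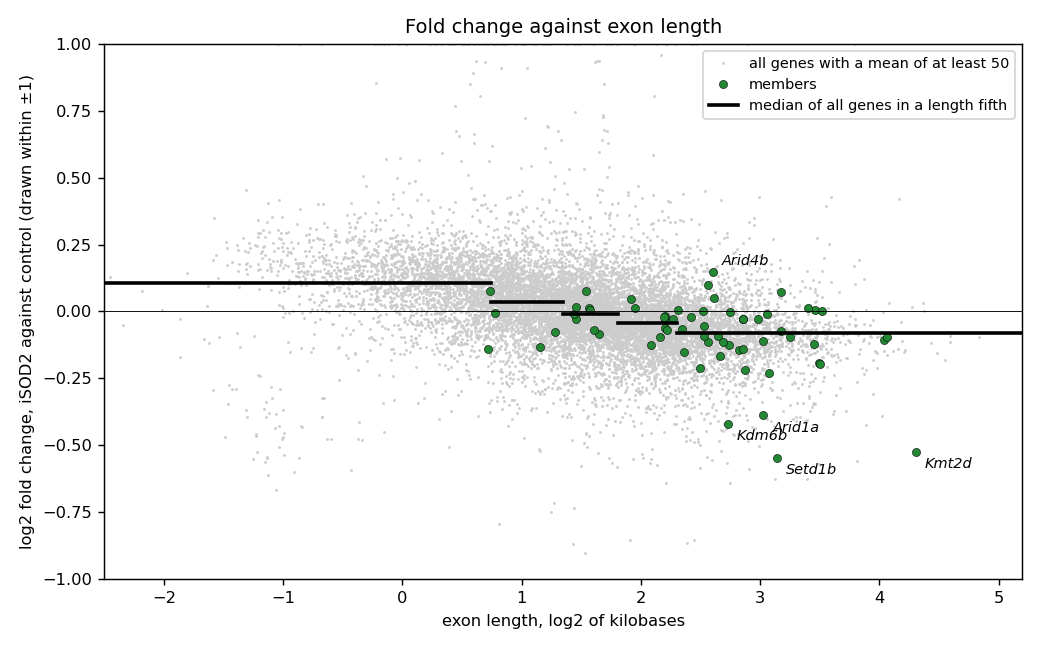
Log2 fold change (iSOD2 against control, drawn within ±1) against exon length in log2 kilobases for genes averaging 50 or more normalized counts (grey) and for members (green), with the median of all genes in each of 5 length classes as a bar. The bars step down from 0.11 in the shortest class to −0.08 in the longest, most members lie at the long end, and Kmt2d, Setd1b, Kdm6b and Arid1a stand below the bar there.

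The hepatocyte markers, higher in iSOD2 mice by 1.80 on the log2 scale, moved with the same comparison. With their level as a covariate, chosen after the data were seen, Kmt2d (−0.49, DESeq2 adjusted p 0.0205) and Arid1a (−0.36, adjusted p 0.0496) were called. Setd1b stood at −0.48 and received no adjusted p in that fit, and Kdm6b was at −0.31 (adjusted p 0.220). The control with the lowest hepatocyte level was control 1, and without it Kmt2d (−0.52, adjusted p 0.00373) and Arid1a (−0.39, adjusted p 0.00917) were called, Setd1b and Kdm6b having no adjusted p.

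Alternative subunits and close paralogues were compared as ratios of levels per length within each heart, which do not depend on scaling between libraries. Kmt2c, a paralogue of Kmt2d that methylates the same enhancers, had 6704, 7447, 6409, 6394 and 6384 normalized counts in the controls and 5870, 6859, 6387, 6317 and 5781 in the iSOD2 mice, with overlapping groups. Kmt2d stood at 0.369 ± 0.0458 of Kmt2c in controls and at 0.274 ± 0.0483 in iSOD2 hearts (SD, 5 mice per genotype), a log2 difference of −0.44 (two-sided exact permutation p 0.0238). The ranges met, −1.62 to −1.17 in controls and −2.11 to −1.50 in iSOD2 mice on the log2 scale. Arid1b, which replaces Arid1a in some BAF complexes, had 1697, 1844, 2123, 1672 and 1723 in the controls and 1675, 1668, 1574, 1507 and 1476 in the iSOD2 mice, where iSOD2 5 at 1675 lay just above control 4 at 1672. Arid1a stood at 1.25 ± 0.0884 times Arid1b in controls and at 1.09 ± 0.0593 times in iSOD2 hearts, a log2 difference of −0.19 (exact p 0.0159), and the highest iSOD2 heart, at 0.24, lay above the lowest control, at 0.21. After adjustment over the 6 pairs both p-values were 0.0714. Smarca2 had 2475, 2415, 2207, 2407 and 2224 normalized counts in the controls and 2396, 2310, 2370, 2107 and 2123 in the iSOD2 mice, and the groups overlapped. Smarca4 to Smarca2, the alternative BAF ATPases, gave 1.13 ± 0.0568 and 1.04 ± 0.0586, a log2 difference of −0.11 (exact p 0.0556, adjusted 0.111). Smarcd3 had 1124, 1020, 928, 943 and 1029 normalized counts in the controls and 974, 1078, 958, 981 and 1033 in the iSOD2 mice, and Smarcd1, the more widely expressed subunit of this kind, 745, 694, 577, 652 and 649 and 668, 655, 650, 608 and 548. Chd4 had 6541, 6272, 5603, 5160 and 5623 and 5559, 5831, 5472, 5260 and 4662, and Chd3, its alternative in NuRD, 792, 772, 799, 793 and 832 and 763, 751, 799, 766 and 834. In none of these 4 genes were the groups apart. The log2 ratios of Smarcd3 to Smarcd1 (1.48 ± 0.0671 and 1.56 ± 0.150), of Chd4 to Chd3 (2.99 ± 0.157 and 2.89 ± 0.178) and of Kdm6a to Kdm6b (2.04 ± 0.610 and 2.57 ± 0.555) had exact p of 0.302, 0.421 and 0.175. The last pair holds the sex difference of Kdm6a given further on, and the genotypes are unequal in sex. Within males its log2 ratio was 1.52 to 1.67 in the 3 controls and 1.80 and 2.20 in the 2 iSOD2 mice, a difference of 0.40. Within females it was 2.69 and 2.72 in the 2 controls and 2.73 to 3.10 in the 3 iSOD2 mice, a difference of 0.24. Neither sex overlapped between genotypes, and the exact p of 0.1 and 0.2 within them could not have gone below 0.1. Kmt2d to Kmt2c was also −0.43 and Arid1a to Arid1b −0.21 after removal of the length trend.

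Sex was compared with genotype as a covariate, since both X-linked demethylase genes escape inactivation of the second X chromosome in the mouse. Kdm5c and Kdm6a were higher in females and were the only members called, 2 of 69 (2.90%) where 0.483% of all genes were. In edgeR they were likewise 2 of 70 members, beside 0.164% of all genes. Kdm5c (NM_013668, chromosome X, 152233227 to 152279099) removes methyl groups from histone H3 at promoters. It had 2146, 2198 and 2165 normalized counts in male controls 1, 2 and 3 and 2000 and 2041 in iSOD2 males 7 and 9. In females it had 3153 and 3247 in controls 4 and 6 and 3052, 2895 and 2977 in iSOD2 mice 5, 8 and 10. The sexes were far apart in both genotypes, the log2 fold change being 0.56 ± 0.04 (SE, adjusted p 4.19e-39 in DESeq2).

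Kdm6a (UTX; NM_009483, chromosome X, 18162575 to 18279936), a demethylase of the Polycomb mark and a partner of Kmt2d in its complex, had 988, 1132 and 1041 normalized counts in male controls and 1060 and 1052 in iSOD2 males. Female controls had 1660 and 1875, and iSOD2 females 1535, 1817 and 1697. The log2 fold change between sexes was 0.71 ± 0.07 (SE, adjusted p 2.67e-21 in DESeq2), with no overlap between males and females. The genotypes held unequal numbers of each sex, and the log2 fold change of Kdm6a between genotypes was 0.10 without and −0.03 with sex as a covariate, with adjusted p of 0.874 and 0.873. For Kdm5c it was 0.01 and −0.10, with adjusted p of 0.992 and 0.135. Within each sex, though, every iSOD2 heart lay below every control for Kdm5c. In males iSOD2 mice had at most 2041 and controls at least 2146 normalized counts, and in females at most 3052 and at least 3153. Without iSOD2 9, Kdm6b (−0.40, adjusted p 0.0139) and Arid1a (−0.27, adjusted p 0.0397) were also called, both lower in females.

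**Figure D5:**
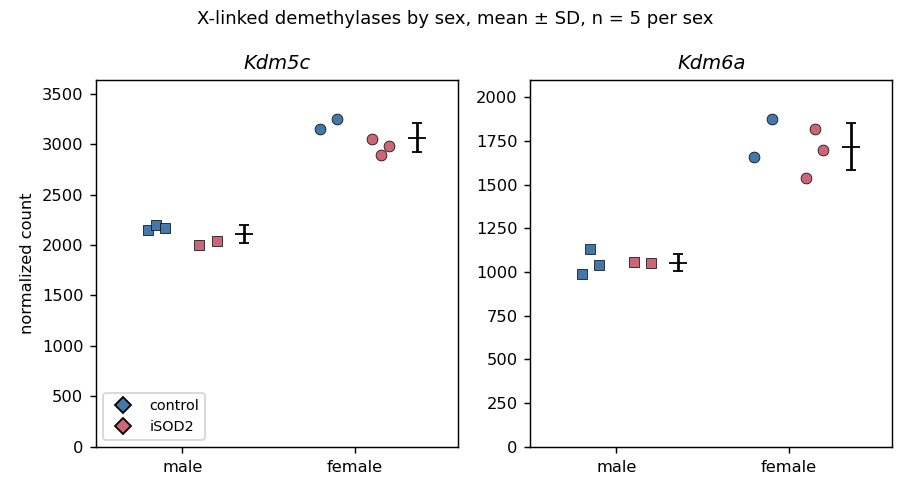
Normalized counts of Kdm5c and Kdm6a in each mouse by sex (blue, control; red, iSOD2), with mean ± SD over the 5 mice of a sex, on axes that start at 0. Males lie at 2000 to 2198 for Kdm5c and 988 to 1132 for Kdm6a, and females at 2895 to 3247 and 1535 to 1875.

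The 4 genotype calls held with sex as a covariate, with log2 fold changes of −0.49 for Kmt2d, −0.51 for Setd1b, −0.34 for Arid1a and −0.35 for Kdm6b (DESeq2 adjusted p 0.000804 to 0.0156). The interaction of genotype and sex gave 0 of 70 members at an adjusted p of 0.05 in DESeq2 and in edgeR, and 0 at an unadjusted p under 0.05 in either, where 1.18% and 2.75% of all genes had one. Between litters 0 of 69 members were called, against 3.50% of all genes. There 10 members had an unadjusted p under 0.05 (14.5%, beside 14.4% of all genes), and edgeR also called 0, against 2.06% of all genes. Chd4, at −0.18 in litter B against litter A, was the 1 member with an adjusted p under 0.05 (0.0494), which 4.31% of all genes reached.

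Partner genes outside the symbol rule, non-member subunits of the same complexes and other histone-modifying enzymes, were read from the same fit. Of 134 listed, 125 were found, 124 fitted and 108 had an adjusted p. Of these 5 fell and 0 rose, where 2.96% of all genes were called, 1.70% of them lower. They were Dot1l, which methylates the core of histone H3 (−0.38), Srcap, an exchanger of histone H2A variants (−0.35), the NuRD subunit Gatad2b (−0.33), the COMPASS cofactor Hcfc1 (−0.27) and Hif1an, an asparagine hydroxylase of the JmjC fold (−0.25), with DESeq2 adjusted p of 0.000663 to 0.0189. In edgeR 0 were called (adjusted p 0.0664 to 0.110 for these 5), and with the length trend removed Gatad2b (−0.38, DESeq2 adjusted p 0.0141) was called lower and the COMPASS subunit Bod1l (0.25, adjusted p 0.00115) higher. Histone acetyltransferase genes were lower for 12 of 14 and deacetylase and sirtuin genes higher for 13 of 16, with medians of −0.06 and 0.05 and 0 called in either list, where 52.7% of all genes with an adjusted p were lower. The deacetylase genes Hdac1 (−0.04) and Hdac2 (0.03) were listed with the NuRD partners and are not among these 16. With the length trend removed 7 of the 14 acetyltransferase genes and 5 of the 16 deacetylase and sirtuin genes were lower, with medians of 0.00 and 0.03. The 10 Polycomb repressive complex 2 genes gave 0 calls, with 6 lower and 4 higher.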

How the data were processed

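RNA from 10 mouse hearts was sequenced by the authors as stranded total RNA libraries and aligned to mm10 (GRCm38) with STAR. Reads were counted over exons with HOMER, with no strand option stated and 1 transcript kept per gene. The study used Trim Galore on those experiments that held adaptor sequences, without stating whether this was one of them. As deposited, the values are expected counts in steps of 0.5, left without normalization by the authors. Beside them the deposited table has another quantity, the exon length in bp. Groups, sex and litter came from the labels, and p-values measure the spread between mice.

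Counts were rounded, and the 17728 genes with at least 10 counts summed over the libraries were fitted in R 4.3.3 with the Wald test of DESeq2 1.42.0 (median-of-ratios size factors, no covariate, Benjamini-Hochberg adjustment over all genes), the filter and thresholds of the study's methods. Of these, 9479 received an adjusted p after independent filtering. The 281 genes called here are more than the paper reports for this comparison, and the cause of the difference was not tested. Normalized counts are counts over size factors. Library totals were 16448091 to 24263086 counts, and errors given over mice include counting error. For ratios and marker lists the exact permutation test was two-sided and enumerated the 252 ways to split the mice 5 against 5 (smallest p 0.00794). Length trends were loess fits (span 0.3) per library, and GC content and exon overlaps came from GENCODE M21 of the same build, GC being found for 99.0% of genes. Scripts were tested on simulated data.

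Alternatives were edgeR 4.0.16 quasi-likelihood, limma 3.58.1 voom, TMM scaling, other filters, covariates, each sex and litter alone, and each mouse left out. The hepatocyte covariate and the leaving out of copies were added after the data were seen. Members, gene lists and the naming rule were chosen with earlier results of these data known. Values per mouse are given for called members, the 5 most positive and 5 most negative members by log2 fold change among those averaging 50 or more normalized counts, and the members of 6 paralogue pairs. Setd7, Smarcc1, Chd7 and Kdm3b were singled out after their values were seen.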

Additional observations from a re-analysis of the deposited data

Results flagged for a closer look

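In the iSOD2 group Kdm6b was high in 1 heart. The library of iSOD2 7, the male of litter A, had 340.3 normalized counts, where the other 4 iSOD2 hearts had 234.7 to 260.1. Its gap to the nearest, over the range of the group, was 0.76, above the 95% critical value of Dixon's test for 5 samples. Over 18 results in 2 groups each, 36 groups were tested and 1 was flagged, where chance gives 1.8. Without iSOD2 7 the log2 fold change of Kdm6b between genotypes was −0.52 (DESeq2 adjusted p 0.000881).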

How the results depend on the processing

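Of the 4 members called between genotypes, edgeR and limma voom called 0 (13 at an unadjusted p under 0.05 in each), females alone and litter B alone 0 (5 and 9 at an unadjusted p), and males alone, litter A alone and the hepatocyte covariate 2 each, where 2, 2 and 1 of the 4 had no adjusted p. Without the fold threshold the count was 9. Leaving out 1 mouse gave 2 to 5 members, 2 without control 1 and 5, with Kmt2b added, without control 4 or without iSOD2 7. The cause was not tested. The median log2 fold change of members was −0.0037 with the exon length trend removed and −0.0064 with length and GC trends removed, and −0.08 to −0.05 when 1 mouse was left out. The log2 fold change of Chd2 between genotypes, 0.07, was −0.031 in litter B alone. That of Kdm6a, 0.10, was −0.072 in females alone, −0.097 in litter B alone, −0.034 with sex, −0.040 with sex and litter and −0.15 with the hepatocyte level as covariates, and −0.0032 without iSOD2 8 (−0.0032 to 0.25 over all mice left out). Members called between sexes numbered 2 to 4 when 1 mouse was left out, 4 without iSOD2 9. Between litters 1 passed without the fold threshold. The Smarca4 to Smarca2 log2 difference was −0.14 to −0.088 with 1 mouse left out, and −0.14 without iSOD2 10 (exact p 0.0397). The Kdm6a to Kdm6b log2 difference was 1.05 (exact p 0.0476) between medians, the middle control being a male and the middle iSOD2 mouse a female, and 0.40 in males and 0.24 in females. Partner genes called numbered 2 with the length trend removed and 0 in edgeR. No paired analysis was possible because the genotypes share no replicate number. The genotypes do share litters, and with litter as a covariate 4 members were called. Each sex or litter alone holds 2 or 3 mice per genotype, so those fits have little power, and exact tests there cannot go below a p of 0.1 (sex, litter B).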
